A study of Homo sapiens with 4 samples.

Results

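Integrin and laminin genes were followed in open chromatin of 786-O, a human renal carcinoma cell line. Members were the protein-coding genes on chromosomes 1 to 22 whose symbols name an integrin alpha chain, an integrin beta chain or a laminin chain, 38 of 19122 protein-coding genes. A peak counted for a gene when it lay within the gene span or the 50 kb on either side, on GRCh38. ATAC-seq, which reads accessible DNA from the places where a transposase can insert adapters, was run on 2 WT control libraries, which the labels call negative controls of genotype WT, and on 2 DEK KO libraries, with 1 deposited peak list for each. The descriptions of the controls name Cas9, and the protocol describes a Cas9-expressing clone made with lentivirus, from which knockout clones were derived with DEK guide RNA virus and sorting of single cells. No drug or other treatment is named. A peak over DEK would not check the loss of its protein, so the knockout is taken from the labels. Whether the 2 libraries of a genotype came from separate clones or cultures is not stated, so p-values measure only the spread between these libraries, which may be technical. DEK itself is a DNA-binding chromatin protein and histone chaperone.

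Laminins are trimers of 1 alpha, 1 beta and 1 gamma chain in the basement membrane, the sheet on which kidney tubule cells rest. Integrins are transmembrane heterodimers of an alpha and a beta subunit that bind laminins, collagens, fibronectin or, in blood cells, ligands on other cells, and they connect these outside the cell to actin or keratin filaments inside. Which pairs a cell can form depends on the subunits it expresses: ITGB1 pairs with many alpha chains, ITGAV with several beta chains, and ITGB4 with ITGA6 in the hemidesmosomes of epithelia.

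For 26 members, the RefSeq promoter table of GRCh38.p14 gave a sequence. The 250 bases before the annotated start are shown for ITGB5 and ITGA11, whose start sites were called in DEK KO lists only, and for ITGAV, ITGB8, ITGA1 and ITGB1, the members with such an entry whose start-site regions ranked highest. That of ITGB6, which had no peak at its start in any list, was chosen after its values were seen, as the promoter of lowest GC content among the members. Each runs 5′ to 3′ on the gene's own strand, and capitals mark a match, on either strand, to 1 of 6 motifs: TGANTCA (AP-1), GGGCGG (SP/KLF), GGAATG (TEAD), ACGTG (the HIF core), CCAAT (NF-Y) and CCGGAAG (ETS). None of the 6 motifs contains another.
ITGB5: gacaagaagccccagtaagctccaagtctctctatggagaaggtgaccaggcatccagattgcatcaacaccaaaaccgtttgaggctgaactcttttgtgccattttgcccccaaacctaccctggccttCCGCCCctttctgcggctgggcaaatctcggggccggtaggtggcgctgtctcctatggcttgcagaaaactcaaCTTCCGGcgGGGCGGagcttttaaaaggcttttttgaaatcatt
ITGA11: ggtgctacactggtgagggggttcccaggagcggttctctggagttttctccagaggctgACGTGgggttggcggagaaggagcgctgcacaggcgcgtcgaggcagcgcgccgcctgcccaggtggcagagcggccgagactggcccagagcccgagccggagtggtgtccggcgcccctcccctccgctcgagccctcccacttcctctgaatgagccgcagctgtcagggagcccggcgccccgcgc
ITGAV: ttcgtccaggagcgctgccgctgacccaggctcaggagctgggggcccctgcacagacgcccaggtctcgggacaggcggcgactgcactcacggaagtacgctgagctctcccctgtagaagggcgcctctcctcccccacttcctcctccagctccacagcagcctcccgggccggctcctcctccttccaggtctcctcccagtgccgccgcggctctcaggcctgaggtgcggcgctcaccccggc
ITGB8: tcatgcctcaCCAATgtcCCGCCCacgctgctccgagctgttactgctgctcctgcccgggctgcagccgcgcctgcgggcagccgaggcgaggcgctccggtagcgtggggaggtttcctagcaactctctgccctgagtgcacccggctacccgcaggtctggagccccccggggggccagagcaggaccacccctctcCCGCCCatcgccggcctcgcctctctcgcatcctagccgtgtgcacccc
ITGA1: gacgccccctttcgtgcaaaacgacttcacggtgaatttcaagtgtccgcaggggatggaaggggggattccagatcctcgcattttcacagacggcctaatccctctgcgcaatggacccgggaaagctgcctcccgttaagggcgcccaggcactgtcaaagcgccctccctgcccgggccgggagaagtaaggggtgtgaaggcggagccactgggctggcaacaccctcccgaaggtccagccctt
ITGB1: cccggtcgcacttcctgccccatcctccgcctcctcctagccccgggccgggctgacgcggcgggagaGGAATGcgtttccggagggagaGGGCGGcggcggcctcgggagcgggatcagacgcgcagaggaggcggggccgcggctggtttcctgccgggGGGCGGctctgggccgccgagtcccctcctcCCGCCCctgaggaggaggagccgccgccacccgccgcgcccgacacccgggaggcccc
ITGB6: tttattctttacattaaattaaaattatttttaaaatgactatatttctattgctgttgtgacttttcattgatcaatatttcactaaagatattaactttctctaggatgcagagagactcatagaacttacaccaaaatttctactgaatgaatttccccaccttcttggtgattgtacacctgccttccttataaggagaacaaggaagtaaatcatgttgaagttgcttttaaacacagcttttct
These stretches lie at chr3:124901419-124901668 (minus strand), chr15:68432164-68432413 (minus), chr2:186589806-186590055 (plus), chr7:20330650-20330899 (plus), chr5:52787666-52787915 (plus), chr10:32958231-32958480 (minus) and chr2:160200273-160200522 (minus). The ITGB8 stretch lies inside the annotated gene span, which begins at an earlier base.

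In the ITGB1 stretch, 3 SP/KLF matches and 1 TEAD match were found, and the ITGB8 stretch held 2 SP/KLF matches and 1 NF-Y match. The ITGB5 stretch held 2 SP/KLF matches and 1 ETS match, and ITGA11 had 1 HIF core match. None of the 6 motifs occurred in the stretches shown for ITGAV, ITGA1 and ITGB6. Over the whole 300-base window, 250 bases before to 50 after the start, 53.8% of the 26 member promoters held GGGCGG, against 58.9% of 15100 promoters of protein-coding genes. NF-Y matches were in 15.4% of member promoters and 36% of all, HIF core matches in 7.69% and 23.6%, ETS matches in 7.69% and 14.4%, TEAD matches in 15.4% and 11.7%, and AP-1 matches in 7.69% and 5.70%. The AP-1 matches were in the promoters of ITGA5 and LAMA3. GC content of the window had a median of 70.7% in the 9 member promoters with a region called in all 4 lists and of 58.3% in the 14 with none, and the same medians over all genes were 65.3% and 57.0%. ITGB6 stood at 31.7% with 0 CpG pairs, and ITGB1 at 78.3% with 39 CpG pairs.

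On chromosomes 1 to 22, WT control replicates 1 and 2 had 87220 and 88059 peaks, and DEK KO replicates 1 and 2 had 100037 and 96862. Peaks in the member windows numbered 426, 440, 457 and 466 in that order. As a share of each list they were 0.488%, 0.50%, 0.457% and 0.481%. The DEK KO lists thus held more member peaks (461.5 ± 6.36, SD, n = 2, against 433 ± 9.90, n = 2), and these were a smaller share of a longer list. The exact permutation test over the 6 assignments of the 4 libraries gave p = 0.333 (two-sided) for the number, the smallest p that 2 against 2 allows. With each list shortened to the 87220 strongest peaks, the difference in number was −1 peak.

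Merging peaks that overlapped by at least 1 bp gave 595 regions in the member windows, from 6 at LAMB2 to 28 at LAMA3 and at LAMB4. Of these, 290 lay inside a member's gene span and 305 in a flank, 168 overlapped another protein-coding gene, and 38 lay in the windows of several members, since some members are neighbours, among them ITGA1 and ITGA2, LAMB1 and LAMB4, and ITGAM, ITGAX and ITGAD. A region in a flank is counted by distance and is not shown to act on the member gene. All 4 lists called 316 of the regions (53.1%, against a background of 47.4% over the 105832 regions in the windows of any protein-coding gene). Both DEK KO lists and no control list called 33 regions (KO-only, 5.55%, background 5.78%). Both control lists and no DEK KO list called 18 (WT-only, 3.03%, background 2.54%), and 228 had another combination. KO-only regions were 64.7% of the 51 regions called in 1 genotype, and over all gene windows that share was 69.4%. The 95% exact binomial interval of the member share was 50.1 to 77.6. It covers counting error only and treats regions as independent, although all come from the same 4 lists. The KO-only and WT-only shares lay near their backgrounds. The share called in all 4 lists was higher than its background (53.1% against 47.4%), a difference that was not tested.

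To compare ranks between lists of different length, regions called in all 4 lists were ranked in each library by the authors' −log10 p, over the same 61035 regions of chromosomes 1 to 22. The resulting value, the shared percentile, is 100 for the region with the strongest call. It orders regions by the strength of the peak call and is not a count of reads. The members' median shared percentile was 50.5 and 52.2 in WT control replicates 1 and 2 and 50.4 and 52.1 in DEK KO replicates 1 and 2, a difference of −0.0879 points (exact permutation p = 0.667, two-sided). Over the regions of all gene windows the medians ran from 50.5 to 51.0, so the members' regions sat in the middle of the ranking in every library, as those of other genes did.

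Start sites were read next, as a region over the 300-base RefSeq window. For genes without a RefSeq window, 12 members among them, a region within 1 kb of either gene end was taken. Such a region is counted as a start site below, although it may lie at the far end of the gene. A start-site region was called in all 4 lists for 16 of 38 members (42.1%, background 55.1% of protein-coding genes). It was called in no list for 16 (42.1%, background 38.8%) and in some of the lists for 6. Among the integrins with a called start were ITGB1, the beta subunit common to most adhesion receptors of epithelial cells, ITGAV, ITGB8 and ITGB3, and the alpha chains ITGA1, ITGA2, ITGA3, ITGA5, ITGA6 and ITGA7. The ITGA7 region, at the gene end of higher coordinate, also covers the promoter of BLOC1S1. For ITGA3, ITGA7 and ITGB3, read at a gene end, strand is not in the table used, so their regions are not shown to be promoters. LAMB1 and LAMB2 were among the laminins with one.

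ITGAV, the alpha chain of the vitronectin and TGF-beta binding integrins, had the highest start-site region (chr2:186589331-186591417). Its shared percentiles were 90.8 and 92.8 in WT control replicates 1 and 2 and 93.5 and 92.6 in DEK KO replicates 1 and 2, so the genotypes overlapped. ITGA1, a collagen receptor subunit, had 76.0 and 89.0 in the controls and 81.2 and 85.7 in DEK KO (chr5:52787628-52788768), again overlapping, and it also covers the promoter of PELO, a gene inside ITGA1. At ITGB8, which pairs with ITGAV and activates latent TGF-beta, the controls had 85.2 and 91.2 and the DEK KO libraries 76.7 and 79.9 (chr7:20329564-20331152). Both DEK KO values were lower there, by less than the difference between the control replicates.

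The same order, with both DEK KO percentiles below both controls, held at 8 of the 16 start sites (50%), and the reverse order at 2 (12.5%). Over the 10527 protein-coding genes with a start-site region in all 4 lists, 22.7% had the lower order and 15.6% the higher one. The members' count was made after their values were seen and was not tested, and none of the 8 regions was lower by more than the larger replicate difference. Besides ITGB8, the 8 included ITGB1, ITGA2, ITGA3, ITGA5, ITGA7 and LAMB2. ITGB1 had 81.0 and 84.3 in the controls and 78.6 and 63.1 in DEK KO (chr10:32958220-32959140). At ITGA5, the fibronectin receptor alpha chain, the controls had 25.7 and 43.8 and DEK KO 9.21 and 19.0 (chr12:54418971-54419757). ITGA3, an alpha chain that binds laminins, had 43.1 and 44.9 against 3.35 and 32.0 in DEK KO, where the replicates lay far apart (chr17:50055157-50056380). Adjusted p-values from limma, a linear model fitted over all 61035 regions, ran for the 16 start sites from 0.119 to 0.991, so none passed 0.05.

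**Figure D1:**
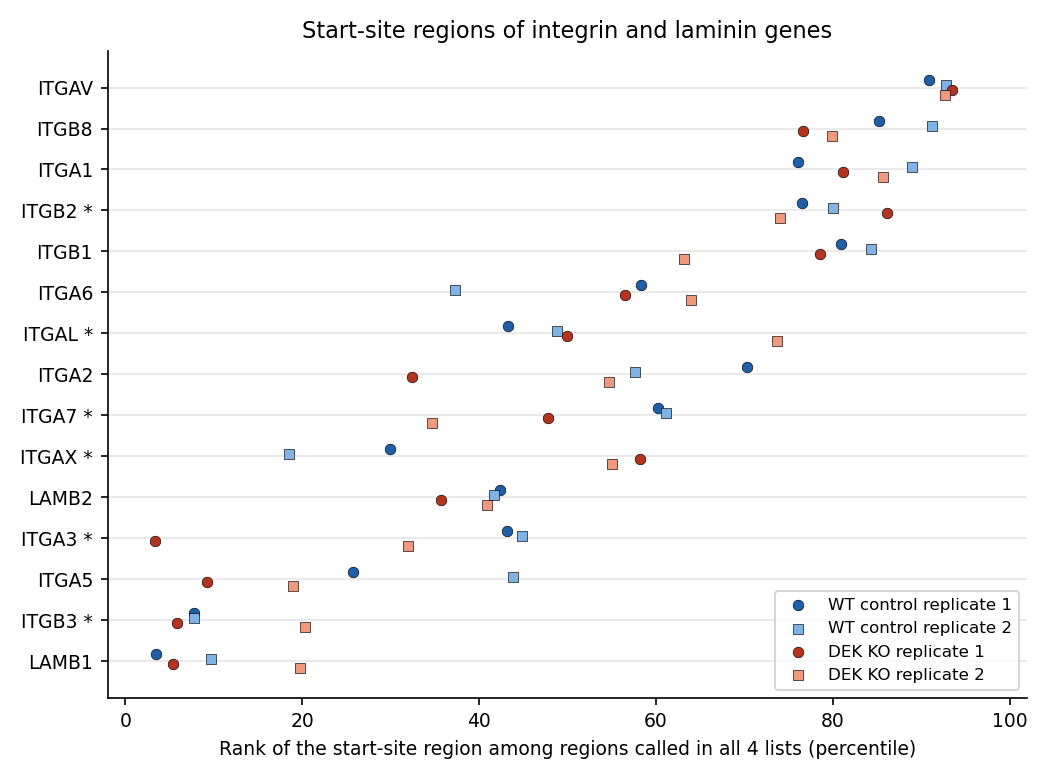
Shared percentile (horizontal axis, percentile among the 61035 regions called in all 4 lists) of start-site regions called in every list, for 15 of the 16 members, with 1 point per library, circles for replicate 1 and squares for replicate 2. Asterisks mark members read within 1 kb of a gene end; ITGAV is highest, and at ITGAX both DEK KO points (58.2 and 55.1) lie above both control points (29.9 and 18.5).

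Of the leukocyte integrin genes, ITGAX, a subunit of a complement receptor of myeloid cells, was the only member whose start-site region passed the rank rule, which required both DEK KO percentiles on 1 side of both controls with a gap larger than the larger replicate difference (5.01% of protein-coding genes with such a region were higher and 7.57% lower by it). Its region at the gene end of lower coordinate (chr16:31354534-31355494) had 29.9 and 18.5 in the controls and 58.2 and 55.1 in DEK KO. The gap was 25.2 points against a replicate difference of 11.4, with an adjusted p of 0.119 from limma. ITGAL, the alpha chain of the lymphocyte receptor for ICAM proteins, had a region at its end of higher coordinate with 43.3 and 48.8 in the controls and 49.9 and 73.7 in DEK KO. ITGB2, the beta chain of both, overlapped between genotypes, with 76.5 and 80.0 against 86.1 and 74.0. Strand is not in the gene table used for these 3 genes. None of the regions is therefore shown to be a promoter, and each may lie at the far end of its gene.

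For the 6 start sites called in some lists, ranks are list percentiles, that is, percentiles among all peaks of that library's own list, and they ran from 2.41 to 48.2. LAMA1, the alpha chain of the first basement membranes of the embryo, was the only WT-only start site (chr18:7116271-7116966, list percentiles of 2.41 in each control). ITGB5, another partner of ITGAV, was called only in DEK KO replicate 1 (chr3:124901365-124901750, 41.7), and ITGA11, a collagen receptor subunit of fibroblasts, only in DEK KO replicate 2 (chr15:68431794-68432157, 18.8). ITGA10, a collagen receptor subunit of cartilage, was called in WT control replicate 2 (38.7) and in both DEK KO lists (48.2 and 42.1, chr1:145910003-145910305). ITGA9 was called in WT control replicate 2 (18.5) and DEK KO replicate 2 (6.25, chr3:37451550-37451998), and ITGAD in WT control replicate 1 (8.17) and DEK KO replicate 2 (12.7, chr16:31393099-31393596). Apart from LAMA1, each of these patterns is split within a genotype.

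No list had a start-site region for LAMA2, LAMA3, LAMA4, LAMA5, LAMB3, LAMB4, LAMC1, LAMC3, ITGA2B, ITGA4, ITGA8, ITGAE, ITGAM, ITGB4, ITGB6 or ITGB7. For some of them a region lay close by: at LAMC1, the gamma chain of most laminins, a region called in all 4 lists lay 403 bp from the annotated start, and at ITGB7, the beta chain of gut-homing lymphocyte integrins, one lay 745 bp away. LAMB3 had a region 469 bp away that was called in some lists only. LAMA3 has several annotated starts, and the RefSeq start used here is inside the gene span. ITGA2B, the platelet fibrinogen receptor alpha chain, and ITGA8, a nephronectin receptor of the developing kidney, had their nearest regions 3694 and 3811 bp away.

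Regions called in 1 genotype were spread over most members: 26 genes had a KO-only region in their window, 15 a WT-only region, 7 both, and ITGA3, ITGA8, ITGB5 and LAMC3 neither. The same gene counts were not made over all protein-coding genes, and windows held from 6 to 28 regions, so these counts only describe the members. None of the 33 KO-only or 18 WT-only regions overlapped a promoter window of any gene, and over all gene windows 1.06% and 1.71% did. Of the 316 regions called in all 4 lists 50 did (15.8%, against 15.1% over all gene windows). Median widths were 485 bp for KO-only, 630 bp for WT-only and 961.5 bp for regions in all 4 lists, against 528, 545 and 964 bp over all gene windows. The lower of a region's 2 list percentiles had a median of 26.1 over the KO-only member regions, against 21.6 over all 6118 in gene windows, and 4 of the 33 lay above 50. For the WT-only member regions the median was 16.3, against 15.7, and 0 of 18 lay above 50. Most of these regions were therefore weak calls in the libraries that had them.

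Around ITGA5 were 2 of the 4 KO-only regions with both percentiles above 50. One lay 11.7 kb outside its span, inside ZNF385A (chr12:54383058-54383521), with list percentiles of 76.2 and 77.3 in DEK KO replicates 1 and 2, where the authors' summit folds over background were 5.95 and 6.88. The other was 4.23 kb upstream of the ITGA5 start (chr12:54423221-54423779, 54.8 and 63.7). ITGA2, the alpha chain of the main collagen receptor of epithelium and platelets, had one 19.5 kb downstream of its start (chr5:53008527-53009110, 60.4 and 55.4), and ITGA2B one 45.1 kb outside its span (chr17:44326875-44327118, 60.2 and 70.6). At all 4, both control lists lacked a peak.

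Among the next KO-only regions by rank were those of ITGAE, a lymphocyte receptor for E-cadherin, inside NCBP3 (chr17:3826156-3826525, 49.8 and 46.6), ITGB1 at 3.80 kb upstream of its start (chr10:32961834-32962221, 36.8 and 37.2), and ITGB7, inside CSAD (chr12:53173127-53173783, 36.1 and 34.6). LAMB4, a beta chain gene of little known function, had the most KO-only regions with 4, and ITGAE followed with 3. No WT-only region lay in either window. The LAMB4 regions ranked low, with lower list percentiles of at most 26.1.

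ITGB6, the epithelial partner of ITGAV, had the most WT-only regions with 4, beside 1 KO-only region. The highest of them lay inside the gene, 30.9 kb downstream of the start (chr2:160168898-160169796), with list percentiles of 37.8 and 38.2 in WT control replicates 1 and 2. Another lay 9.4 kb upstream of the start (chr2:160209534-160209806, 29.1 and 45.2). At LAMC1, a WT-only region lay 19.0 kb upstream of the start (chr1:183004199-183004574, 18.9 and 16.6). The LAMC1 window held 3 WT-only regions and 0 KO-only ones.

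Other WT-only regions among the 8 of highest rank were those of ITGA2B, inside GRN (chr17:44350718-44351122, 38.2 and 28.6), ITGA2 at 8.13 kb downstream of its start (chr5:52997167-52997790, 37.2 and 26.1), ITGB8 at 50.2 kb upstream (chr7:20280191-20281116, 27.9 and 26.1), and LAMA3, inside the span (chr18:23845030-23845561, 24.5 and 41.5). ITGA2 and ITGA2B thus each had both a KO-only and a WT-only region among those of highest rank.

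**Figure D2:**
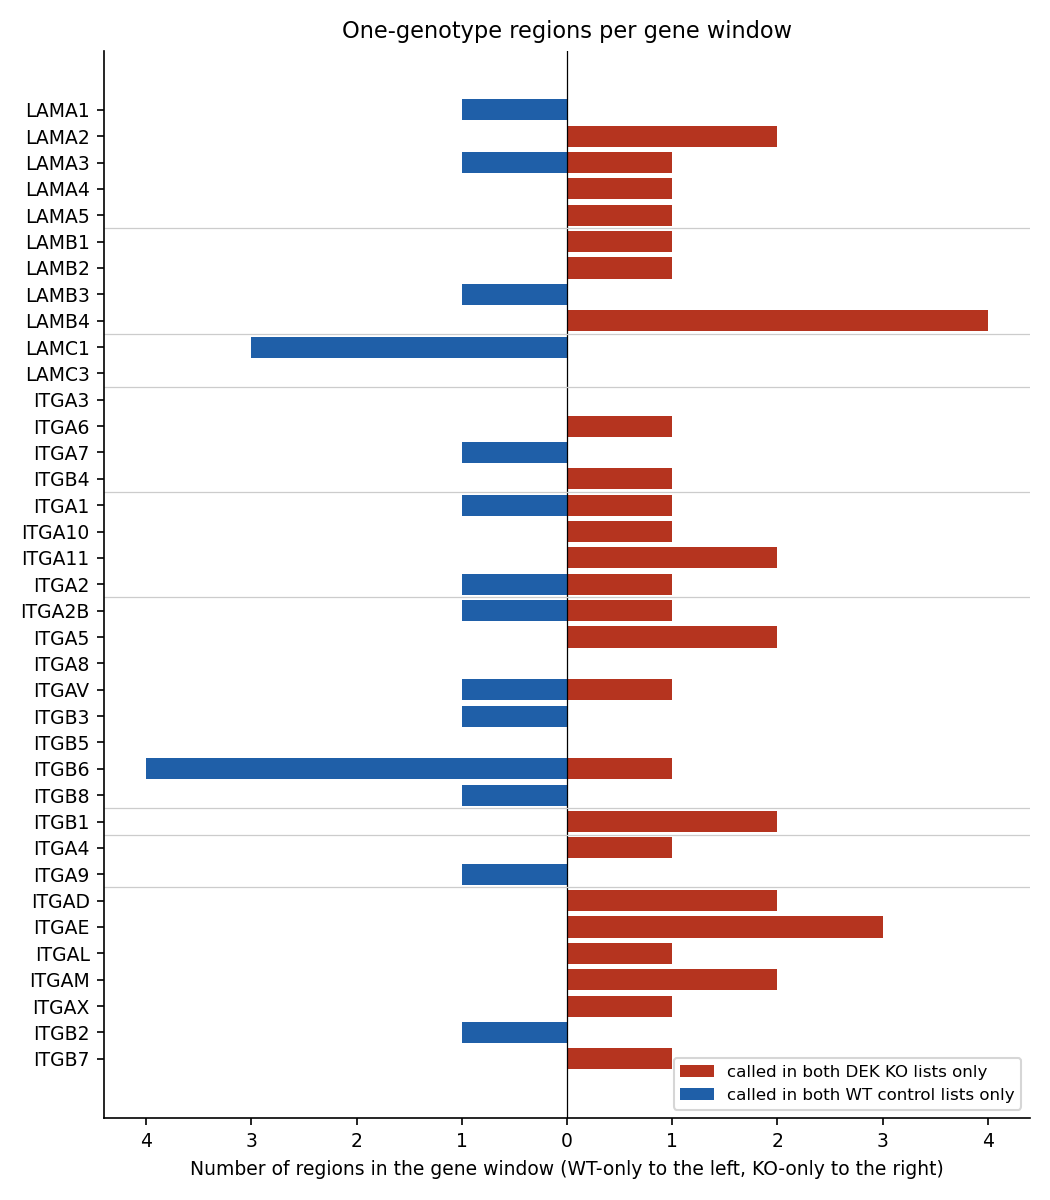
Number of regions in each member's window called in both DEK KO lists only (right, red; 37 of the 38 members drawn) and in both WT control lists only (left, blue), with genes ordered by role: laminin alpha, beta and gamma chains, then laminin-binding, collagen-binding, RGD-binding, ITGB1, ITGA4 with ITGA9, and leukocyte integrins. LAMB4 has 4 KO-only regions, ITGB6 has 4 WT-only regions, and most genes have 1 or 2; a region in several windows is drawn in each.

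Ranks of the 316 regions called in all 4 lists were compared by the rank rule. By it, 28 regions were higher in DEK KO (8.86%, background 9.70%) and 23 lower (7.28%, background 9.58%). They lay in the windows of 17 and 16 members, with 8 members having both. In the 13 genes LAMA1, LAMA2, LAMA5, LAMB2, LAMB4, LAMC3, ITGA2B, ITGA5, ITGA6, ITGA8, ITGA9, ITGA11 and ITGB1 no region passed. These gene counts, too, have no background over all protein-coding genes. A fit with limma over all 61035 regions, on normal scores of the shared percentiles with Benjamini-Hochberg adjustment, called 3 member regions higher (0.949%, background 0.676%) and 0 lower (0%, background 0.279%) at an adjusted p under 0.05. At an unadjusted p under 0.05, limma had 44 of the 316 (13.9%, background 17.7%), 23 higher and 21 lower.

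**Figure D3:**
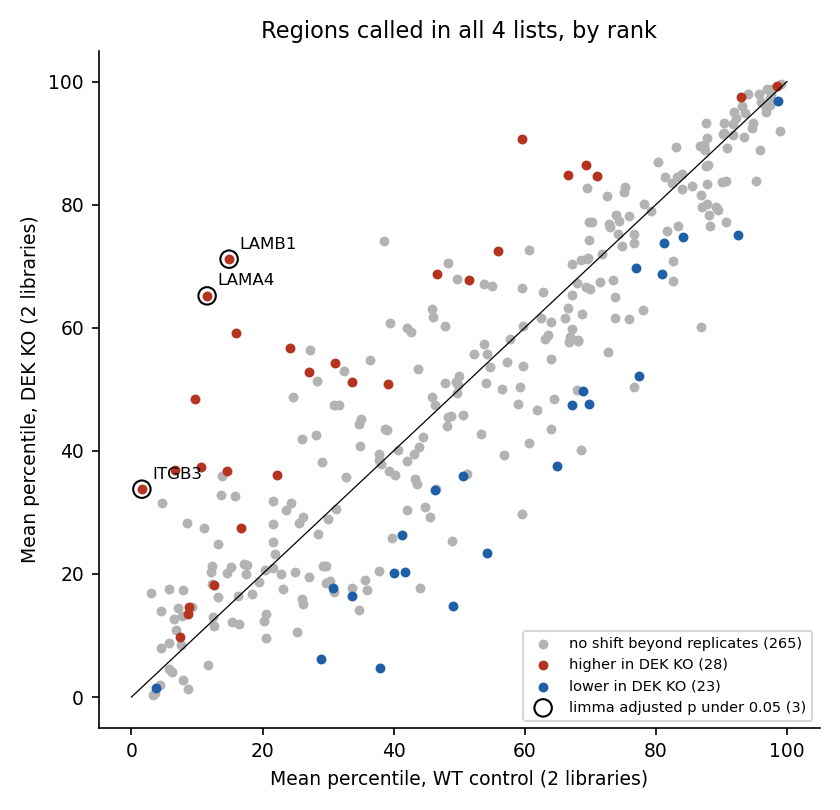
Mean shared percentile in the 2 WT control libraries (horizontal) and the 2 DEK KO libraries (vertical) for the 316 member regions called in all 4 lists, coloured by the rank rule, with the line of equal rank. Red points (28) lie above it and blue points (23) below; the 3 ringed regions, at LAMB1, LAMA4 and ITGB3, are those with a limma adjusted p under 0.05.

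LAMB1, the beta chain of the widespread laminins that include those of the tubule and vessel basement membrane, had the largest gap among the member regions. The region (chr7:107948948-107950031) lies inside the gene span (chr7:107923799-108003161), 53.7 kb downstream of the start. Its shared percentiles were 17.7 and 12.1 in WT control replicates 1 and 2 and 66.3 and 75.9 in DEK KO replicates 1 and 2. The gap of 48.6 points between the genotypes compares with a replicate difference of 9.59, and limma gave a difference of 1.61 on the normal score scale (SE 0.257, adjusted p = 0.0412). The LAMB1 start site itself ranked low in every library, at 3.44 and 9.67 in the controls and 5.41 and 19.8 in DEK KO. Within 1 Mb of the LAMB1 window, 7 of 42 regions called in all 4 lists were higher by the rank rule and 1 lower.

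LAMA4, the alpha chain of laminins of vessel walls and mesenchymal tissue, had a region of the same kind 48.7 kb downstream of its start (chr6:112205380-112206287, gene span chr6:112107931-112254985). The controls had 9.89 and 13.2 and the DEK KO libraries 59.8 and 70.6, and limma gave a difference of 1.60 (SE 0.254, adjusted p = 0.0412). No list called a peak at its start, whereas 8 regions of its window were called in all 4. ITGB3, the beta chain of the platelet fibrinogen receptor and of an ITGAV vitronectin receptor, had one 30.1 kb outside its span, inside MYL4 (chr17:47223080-47223732). It was close to the bottom of the ranking in the controls, at 0.931 and 2.25, and at 35.6 and 31.9 in DEK KO (difference 1.76, SE 0.256, adjusted p = 0.0382 from limma). Each of the 3 calls was lost when any 1 of the 4 libraries was left out of the fit, with adjusted p-values from 0.0765 to 0.203, while all 3 differences stayed positive. Over all gene windows, too, only 0 to 1 regions were called with a library left out, against 479 of 50155 with all 4 libraries, so this loss is not particular to the 3. The 3 also missed 0.05 when regions were ranked by summit fold (0.0692 to 0.134), where limma called 1 region over all gene windows. With only peaks of −log10 q of at least 5, the ITGB3 region had no value, while LAMB1 and LAMA4 each had a limma adjusted p of 0.0449. With peaks reduced to 100 bp on each side of the summit, the LAMA4 region had no value. The limma adjusted p was then 0.0385 at LAMB1 and 0.0362 at ITGB3.

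Of the other regions higher in DEK KO, that of ITGB4 lay 23.2 kb outside its span (chr17:75781011-75781452) and had 14.2 and 17.7 in the controls and 66 and 52.4 in DEK KO (limma adjusted p = 0.0584). ITGB2 had one inside SLX9, a neighbouring gene (chr21:44947116-44948088), with 62.5 and 56.7 against 87.4 and 94.0. An ITGA2 region 16.0 kb downstream of its start (chr5:53004952-53005656) had 4.92 and 14.4 against 38.2 and 58.6. At LAMB3, the beta chain of the hemidesmosome laminin, a region 15.4 kb upstream of the start (chr1:209667312-209668301) had 12.2 and 1.19 against 31.2 and 42.6. None of these 4 passed the limma threshold, and in each both DEK KO values lay above both controls.

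ITGB8 held the 3 member regions with the largest gap in the other direction. The first lay 24.1 kb upstream of its start (chr7:20306215-20307441) and had 36.8 and 39.1 in WT control replicates 1 and 2 and 2.61 and 6.90 in DEK KO replicates 1 and 2. Its gap was 29.9 points against a replicate difference of 4.29, with a limma difference of −1.41 (SE 0.265, adjusted p = 0.0504), just outside the threshold. Another, 54.5 kb downstream of the start (chr7:20385111-20385632), had 53.7 and 44.3 in the controls and 20.5 and 9.0 in DEK KO. The third, 21.9 kb downstream (chr7:20352087-20353422), had 51.1 and 57.5 in the controls and 18.2 and 28.6 in DEK KO. With the start site and a region 79.3 kb downstream (30.9 and 21.2 against 25.0 and 6.90), 5 regions of the ITGB8 window were called in all 4 lists, and 0 of them passed the rank rule as higher.

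The call at the upstream ITGB8 region depended on the setting. Its adjusted p was 0.0476 with lists cut to equal length and 0.0463 with peaks reduced to 100 bp on each side of the summit, but 0.107 with ranking by fold and 0.110 to 0.218 with 1 library left out. With only peaks of −log10 q of at least 5, the region was not in all 4 lists and had no value. Its part of chromosome 7 also leaned this way: over the first 40 Mb, outside the ITGB8 window, 21.0% of the regions called in all 4 lists were lower in DEK KO and 4.13% higher, against 10.7% and 11.3% from 40 Mb on. Within 1 Mb of the ITGB8 window, 4 of 29 such regions were lower and 0 higher. The part of this stretch in the ITGB8 result was not tested.

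Among the other regions lower in DEK KO, 2 lay inside LAMA3, the alpha chain of the hemidesmosome laminin. One (chr18:23779477-23780215) had 76.4 and 78.5 in the controls and 56.8 and 47.3 in DEK KO, and the other (chr18:23709916-23710642) had 67.7 and 66.7 against 49.7 and 45.4. That of ITGB6, 28.4 kb upstream of its start (chr2:160227375-160229886), had 67.8 and 62.1 against 32.5 and 42.6. ITGB7 had one inside RARG (chr12:53213082-53213719), with 40.2 and 43.2 against 18.6 and 22.1. Adjusted p-values from limma for these 4 ran from 0.177 to 0.301. LAMA3 and LAMB3 encode chains of 1 laminin. Of 15 regions called in all 4 lists in the LAMB3 window, 3 were higher and 0 lower (background 9.70% and 9.58%). Of 14 such regions in the LAMA3 window, 0 were higher and 2 lower. These counts are small and were not tested. Within 1 Mb of the LAMB3 window, 2 of 67 regions called in all 4 lists were higher and 8 lower. Within 1 Mb of the LAMA3 window, 6 of 57 were higher and 2 lower.

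**Figure D4:**
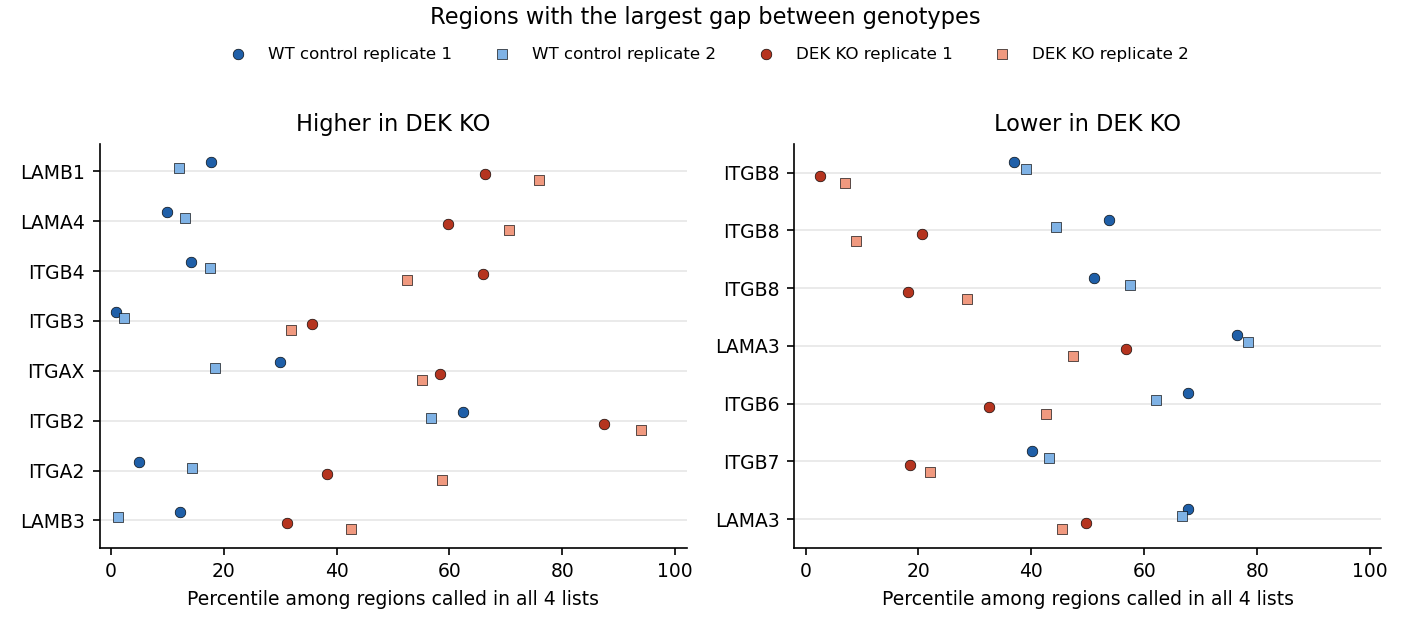
Shared percentile in each library (horizontal axis, 1 point per library) of the 8 member regions with the largest gap higher in DEK KO (left) and of 7 of the 8 lower (right), each row 1 region labelled by its gene. LAMB1 moves from 17.7 and 12.1 in the controls to 66.3 and 75.9 in DEK KO, and the 3 upper rows on the right are regions of ITGB8.

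**Figure D5:**
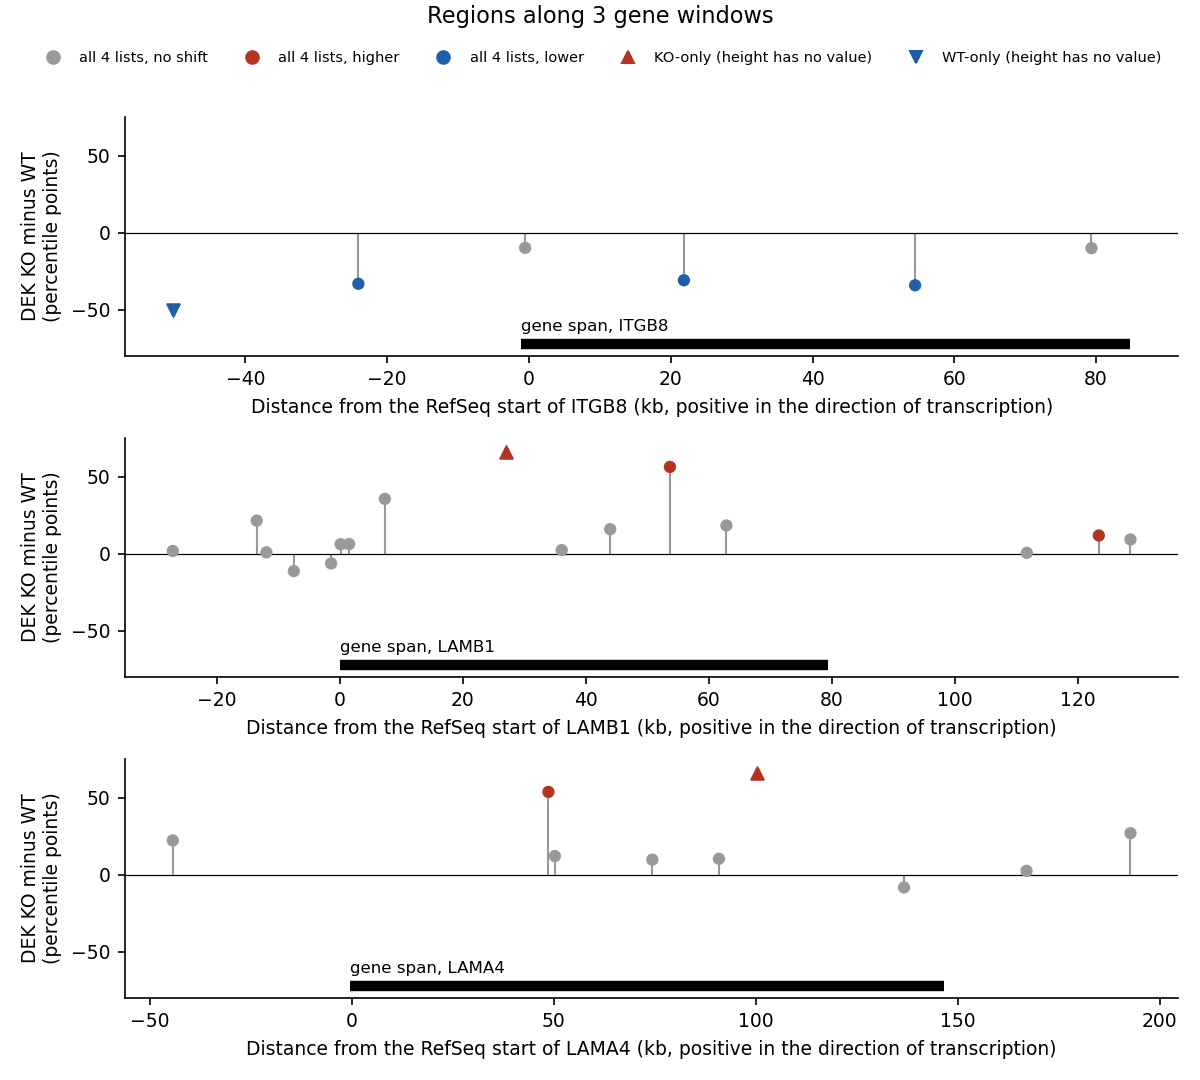
Regions along the windows of ITGB8, LAMB1 and LAMA4 by distance from the RefSeq start in kb (horizontal axis), with the difference of mean shared percentile, DEK KO minus WT control, for regions called in all 4 lists (vertical axis, points). Black bars are gene spans, and triangles mark regions called in 1 genotype, drawn at a fixed height; in ITGB8 all 5 points lie below 0, and in LAMB1 and LAMA4 the highest point lies inside the gene, 53.7 and 48.7 kb from the start.

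Other members had few or no shifts. LAMA2, the alpha chain of muscle laminin, had 22 regions, 5 of them in all 4 lists, and the strongest lay 608 kb downstream of its start inside the gene (chr6:129490184-129491653, 98.3 and 99.6 in the controls and 95 and 89.0 in DEK KO). LAMA5, the alpha chain of most adult epithelial basement membranes, had 10 regions in all 4 lists and 1 KO-only region. LAMB2, the beta chain of the glomerular basement membrane, had 5 and 1, and the strongest of its 5 covered the promoter of QRICH1. At LAMC3, 8 of 17 regions were called in all 4 lists and none in 1 genotype only. In these 4 windows no region passed the rank rule.

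ITGA4, the alpha chain of a receptor for VCAM1 and fibronectin, had only 1 of 12 regions called in all 4 lists, inside the neighbouring gene CERKL (chr2:181586057-181587286). That region was lower in DEK KO by the rank rule, with 91.6 and 93.4 in the controls and 79.3 and 70.7 in DEK KO (limma adjusted p = 0.153). ITGA9, related to it and a receptor for tenascin, had 2 of 13 regions called in all 4 lists. ITGA8 had 1 of 8, inside the gene, and it overlapped between genotypes (44.4 and 56.7 against 37.5 and 54.2). ITGA6, the alpha chain that pairs with ITGB4 to bind laminins, had its strongest region 14.5 kb downstream of its start (chr2:172440903-172442756), with 81.4 and 84.9 against 86.0 and 92.6. That pair of values was higher in DEK KO by less than the replicate difference. ITGA7, a laminin receptor subunit of muscle, had 1 region higher by the rank rule, with 9.96 and 7.30 against 13.9 and 13.1 (limma adjusted p = 0.613).

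By role, counts were small and are given beside the shares over all gene windows (5.78% KO-only and 2.54% WT-only of all regions, 9.70% higher and 9.58% lower of those called in all 4 lists). The 12 laminin genes had 11 KO-only and 6 WT-only among 215 regions, and 7 higher and 5 lower among the 114 called in all 4 lists. The 18 integrin alpha genes had 17 and 5 among 246, and 11 and 10 among 120. For the 8 integrin beta genes the counts were 5 and 7 among 134, and 10 and 8 among 82. In the windows of the 4 laminin beta genes there were 5 KO-only regions and 1 WT-only region among 68, and 5 higher and 0 lower among 39. Leukocyte integrin genes had 8 KO-only regions and 1 WT-only region among 84, and 8 higher and 5 lower among 51. None of these group counts was tested. At the ITGAM, ITGAX and ITGAD cluster, 4 regions were higher and 0 lower. Of the regions called in all 4 lists, 1 of 4 was higher in the ITGAM window, 3 of 5 at ITGAX and 4 of 8 at ITGAD. These windows overlap, so a region can count in several. Within 1 Mb of the ITGAX window 10 of 59 such regions were higher and 2 lower. Chromosome 16 as a whole had 12.4% higher and 6.90% lower. The part of the chromosome in the cluster's count was not tested.

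Of the 5 member regions of highest mean shared percentile, which lie near the upper end of the scale in every library, one was inside ITGA5, 7.62 kb downstream of its start (chr12:54411331-54411966), with 96.7 and 97.1 in the controls and 97.9 and 99.6 in DEK KO. Others lay in flanks, over the promoter of DLD in the LAMB1 window (chr7:107890738-107892224, from 98.2 to 99.9), over that of DCTPP1 in the ITGAL window (chr16:30429151-30430594, from 97.6 to 99.6), and 27.1 kb outside ITGA3 (chr17:50026877-50028962, from 96.9 to 98.4). The fifth, 13.0 kb outside ITGB3 (chr17:47239694-47240812), had 98.6 and 98.4 in the controls and 99.4 and 99.2 in DEK KO, a gap of 0.608 points that met the rank rule with a limma adjusted p of 0.547. ITGA5 thus had a strong internal region beside a start site of low rank.

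Of 27 genes whose products act with integrins inside the cell or at the membrane, 21 had a start-site region called in all 4 lists (background 55.1% of genes) and 3, LIMS2, FERMT3 and TNS3, in none (background 38.8%). Talins, vinculin, kindlins, the kinases FAK and ILK and their adaptors make up this list. FERMT1, a kindlin of epithelial cells that activates integrins, had the list's only start-site region that passed the rank rule. Its shared percentiles were 45.0 and 32.5 in the controls and 0.986 and 10.2 in DEK KO (limma adjusted p = 0.0789). That region was read within 1 kb of a gene end (chr20:6073951-6074589) without strand. It is therefore not shown to be a promoter and may lie at the far end of the gene. BCAR1, TNS1 and CD151 were called in 2, 1 and 3 lists. Over the windows of the list, 20 of 568 regions were KO-only and 14 WT-only (background 5.78% and 2.54%). Of 321 called in all 4 lists, 26 were higher and 34 lower (background 9.70% and 9.58%), with 0 limma calls.

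Of 20 genes of matrix ligands and basement membrane, 5 had a start-site region in all 4 lists (background 55.1%) and 12 in none (background 38.8%): TNC, NPNT, NID1, NID2, HSPG2, COL18A1, FBLN1, NTN4, FRAS1, FREM1, VWF and FGB. VTN, which encodes vitronectin, a ligand of the ITGAV receptors, was lower in DEK KO, with 17.3 and 19.6 against 7.73 and 4.47 (limma adjusted p = 0.202). COL4A1 and COL4A2, the collagen IV pair transcribed from a shared promoter, had 1 region called in 3 lists, and COL17A1 was called in 1. The list's 333 regions included 19 KO-only and 12 WT-only (background 5.78% and 2.54%). Of its 172 regions called in all 4 lists, 20 were higher and 26 lower (background 9.70% and 9.58%), with 0 limma calls.

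The labelled cell type was checked by start-site calls of fixed markers. Of 8 renal tubule and clear cell carcinoma genes, PAX8, VEGFA, EPAS1, VIM and CDH2 were called in all 4 lists, and PAX2, CA9 and NNMT in none. Among 8 leukocyte genes, SPI1 and CD74 were called in all 4, CD14, LCP1 and CORO1A in some, and PTPRC and CD3E in none. All 4 endothelial genes had no call, and of the 3 platelet genes GP1BA was called while PF4 and ITGA2B were not. The regions of VEGFA, SPI1 and GP1BA were read within 1 kb of a gene end without strand. They are therefore not shown to be promoters or to lie at the starts of these genes.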

How the data were processed

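The members and gene lists were chosen with earlier results of these data known. Each library had 1 peak list, whose columns are the authors' deposited values: a score, a summit fold over background, −log10 p, −log10 q and a summit offset, in the layout of MACS2. MACS2 2.2.7.1, Bowtie2 2.2.5 and hg38 are named in the submitters' processing notes. The extraction text in the labels describes an RNA kit, and how the ATAC libraries were made is not stated. The lists hold no read counts, so depth is unknown beyond the number of peaks. Every listed peak had a deposited −log10 q of at least 1.30. Peaks of the 4 lists on chromosomes 1 to 22 were merged at an overlap of at least 1 bp, and each library's highest −log10 p in a region was ranked. Normal scores of the shared percentiles were fitted with limma 3.58.1 (R 4.3.3) over all 61035 regions, without a replicate term. A run on simulated ranks drew its spread from limma's own estimate, so it cannot check how well that model describes these lists. Regions named in the text are the 8 of largest gap or rank in each direction, the 5 of highest mean percentile, and start sites, plus single regions chosen after their values were seen. Gene positions are from RefSeq (GRCh38.p14). Alternatives covered the peak cutoff, list length, flank, summit width, rank column, scale, the replicate term and leaving out each library. Results for 1 member and for some neighbouring or marker genes are not reported here, although counts over all members include them.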

Additional observations from a re-analysis of the deposited data

How the results depend on the processing

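Cutting the flank to 10 kb left 359 regions, 190 of them in all 4 lists, and gave 21 KO-only, 7 WT-only, 13 higher and 15 lower regions. Background shares at that flank were 5.45% KO-only, 2.6% WT-only, 9.21% higher and 9.62% lower. Gene spans alone (290 regions, 151 in all 4 lists) gave 15, 6, 11 and 13, with background shares of 5.33%, 2.67%, 8.87% and 9.77%. Fewer regions were counted in both settings, and the cause of the changes was not tested. With spans alone the members' median percentile difference was 2.43 points (exact permutation p = 0.333) and not −0.0879, and with ranking by fold it was −4.34 (exact permutation p = 0.333). Lists cut to the shortest length gave a difference of −1 member peak per library. Ranking by fold gave 17 higher regions (background 7.74%), and limma then called 0 member regions (32 at an unadjusted p under 0.05) and 1 over all gene windows. Percentiles in place of normal scores gave 0 limma calls (46 unadjusted) and 0 over all gene windows, so neither loss is particular to the members. The cause was not tested.

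With 1 library left out, KO-only regions numbered 47 to 79, WT-only 32 to 45, higher 61 to 69 and lower 53 to 76, because a rule that needs both libraries of a genotype then needs 1. Over all gene windows the same settings gave 9.10% to 16.0% KO-only and 4.74% to 8.94% WT-only. Of the regions called in every remaining list there, 19.3% to 23.4% were higher and 19.7% to 24.6% lower. limma called 0 to 0 member regions (25 to 47 at an unadjusted p under 0.05) and 0 to 1 over all gene windows (5644 to 9646 unadjusted), and a lone library is then assumed to vary like the other genotype. The median difference was 0.475 to 1.39 points, the peak difference 21.5 to 35.5, the start-site calls 16 to 17 and the lower start sites 8 to 9. Whether replicate numbers pair the libraries is not stated. Over 61035 regions the correlation of replicate deviations was 0.0151, so no pairing was seen there. The members' medians did run with replicate number (50.5 and 50.4 in replicates 1, 52.2 and 52.1 in replicates 2). A fit with the replicate block gave 7 limma calls among the 316 member regions against 3, and 1180 against 479 among the 50155 of all gene windows. All lists hold only peaks past the caller's threshold, so a region missing from a list may be weak there and is not shown to be closed.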
